A study of Mus musculus with 6 samples.

Results

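Autophagy and mitophagy genes were examined across 6 mouse neural stem cell lines, 3 labelled FoxO-null and 3 labelled wild type. The set was a given list of 42 genes that cover the steps from starting an autophagosome to delivering it, plus receptors that mark mitochondria for removal. For each gene the probe set with the highest mean signal over the 6 arrays was taken, among those that the annotation gives to that gene alone. Such a probe set existed for 40 of the 42 genes, among 18193 genes on the array, and 39 of them were bright enough to be tested, among 12663 genes. Bnip3l was on the array only as 3 probe sets shared with a pseudogene and Optn had none in the annotation used here, so neither has a value, and Atg10 was left out for low signal. Neural stem cells are dividing brain cells that can make neurons and glia, and FoxO proteins are transcription factors that leave the nucleus when insulin signalling is active. Total RNA of each line was hybridised to 1 Affymetrix array. The labels call the lines independent and give neither the FoxO genes deleted, nor the means of deletion, nor the age or sex of the animals, nor the culture conditions.

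Autophagy wraps parts of the cytoplasm in a new double membrane, the autophagosome, and hands them to the lysosome for breakdown. A kinase complex around Ulk1 starts the process, a lipid kinase complex around Becn1 marks the membrane, and a ubiquitin-like conjugation system fixes LC3 and GABARAP proteins on it. Cargo receptors such as p62, the product of Sqstm1, tie the cargo to LC3, and mitophagy receptors do the same for damaged or surplus mitochondria. FoxO factors are known to switch on several of these genes in muscle and other cells, and adult neural stem cells are known to need autophagy for their upkeep.

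The FoxO signals went against the labels. Of 9 probe sets for Foxo1, Foxo3 and Foxo4, 8 had a positive difference, and the brightest one for Foxo1 had signals of 77.9, 77.8 and 100.3 on the FoxO-null arrays and 20.3, 20.4 and 31.7 on the wild-type arrays. Whether they lie in the deleted exons is unknown, so the groups are called by their labels and every direction below follows them. Exchanged labels and probe sets outside the deletion cannot be told apart here, and with exchanged labels every difference given here would turn its sign, those of the genes known as FoxO-induced included. The defining stem and progenitor markers were present but not level: all 8 on the list were tested, and Sox2 averaged 2278 ± 317 against 2122 ± 211, while the groups were apart in Slc1a3 (0.38 ± 0.10), Msi1 (0.51 ± 0.18) and Prom1 (0.41 ± 0.17), and Nes was at -0.36 ± 0.17. The median deviation of these 8 from the mean of the 6 arrays was 0.14, 0.082 and 0.083 on the FoxO-null arrays and -0.21, -0.067 and -0.058 on the wild-type arrays. That of 8 neuron markers, all tested, was -0.11, -0.11 and -0.040 on the FoxO-null arrays and 0.063, 0.12 and 0.082 on the wild-type arrays. Their median log2 difference was -0.051, with 5 negative and 3 positive. Tubb3 at -0.64 ± 0.27 and Syt1 at -0.43 ± 0.26 were both apart on the lower side. The positive ones were Dcx at 0.16 ± 0.22, Snap25 at 0.14 ± 0.39 and Elavl3 at 0.10 ± 0.23, with overlapping groups. Of the other cell types, 5 of 6 microglial, 4 of 5 endothelial and 2 of 5 fibroblast markers were too dim to test. The sums of glial markers were apart by label: the summed signal of 8 astrocyte markers was 5429 to 6543 on the FoxO-null arrays and 3551 to 5226 on the wild-type arrays, and that of 8 oligodendrocyte lineage markers was 16357 to 17141 on the FoxO-null arrays and 13534 to 14925 on the wild-type arrays, with Mog under the controls throughout. Single markers differed in sign: S100b was at -0.0084 ± 0.29, Olig1 at -0.085 ± 0.12 and Olig2 at -0.18 ± 0.11. At an unadjusted limma p under 0.05, 4 of 7 tested astrocyte and 4 of 7 tested oligodendrocyte lineage markers were higher, where 5.31% of all genes tested were. Cnp, of the oligodendrocyte lineage, was at 0.87 ± 0.12 and had an adjusted p of 0.0496 over all genes in limma. The 19 measured cell division genes went the other way, all with a negative difference and a median of -0.38 on the log2 scale. The part of these differences in the values below was not tested, and in bulk RNA fewer cells of a type and less RNA per cell cannot be told apart. The wild-type 1 array stood out by an 18S rRNA control of 211, against 23.5 to 38.9 on the other arrays.

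No autophagy gene passed the threshold, and those with the smallest p had the higher signal under the FoxO-null label. In limma, with the Benjamini-Hochberg adjusted p under 0.05 over all genes, 0 of the 39 tested members passed, beside 5 of 12663 genes (0.0395%). At an unadjusted limma p under 0.05, 8 of 39 members had higher signals in the FoxO-null lines, a share of 20.5%, while 5.31% of all genes tested were. No member was lower by that measure, where 4.90% of all genes were. The 8 were Map1lc3a, Map1lc3b, Gabarapl1 and Atg4b of the conjugation step, Wipi1 of membrane expansion, and Pink1, Bnip3 and Fundc1 of mitophagy. None belonged to initiation, nucleation or the cargo receptors. These steps had 5, 6 and 3 tested genes, too few for a count of 0 to stand out. In 7 members all FoxO-null arrays lay above all wild-type arrays (17.9%, against 8.08% of all genes), and in 2, Becn1 and Atg2b, they lay below (5.13%, against 7.93%). The median log2 difference, FoxO-null minus wild-type, was 0.077 for the 39 members and 0.0099 for all genes tested, and 26 members were positive (66.7%, against 51.8%).

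The count of 8 moved with single lines. Leaving out FoxO-null 1, 2 or 3 gave 3, 4 or 5, and leaving out wild-type 1, 2 or 3 gave 4, 6 or 9. It was 3 when the arrays were centred on their medians, which moved the median of all genes to -0.058, and 4 without an intensity trend in the variance. Map1lc3b and Wipi1 were under an unadjusted limma p of 0.05 in all 6 fits that left out an array, and Pink1 in 4 of them. Over all genes, the count of 5 became 0, 4 or 1 when FoxO-null 1, 2 or 3 was left out and 3, 3 or 13 when wild-type 1, 2 or 3 was.

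**Figure D1:**
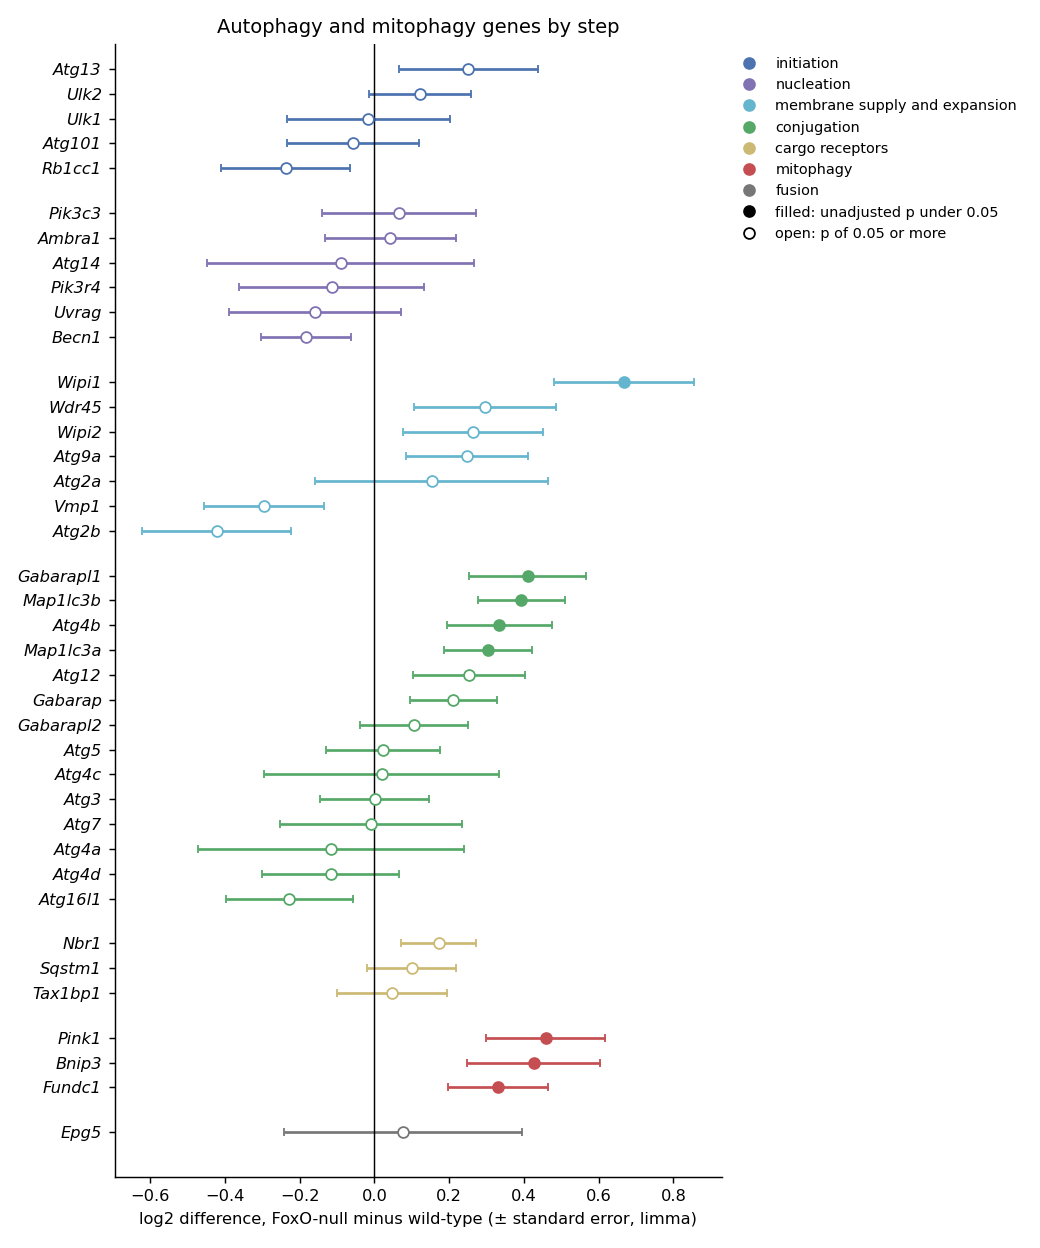
Log2 difference (FoxO-null minus wild-type by label, 3 lines each, ± the limma standard error) on the horizontal axis for the 39 tested genes, coloured by step, with filled points at an unadjusted p under 0.05. The filled points lie to the right of 0, in the conjugation, membrane and mitophagy steps, and the largest is Wipi1 at 0.67.

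The ubiquitin-like proteins that coat the autophagosome had positive differences throughout. Over the 14 tested conjugation genes the median log2 difference was 0.065, with 10 positive and 4 negative, where 51.8% of all genes tested were positive. The split of this step that follows was not among the given steps. All 5 measured LC3 and GABARAP genes had a positive difference, with a median of 0.30. The 9 other tested conjugation genes had a median of 0.00075, 5 of them positive and 4 negative. Map1lc3b encodes LC3B, the protein whose lipid-bound form is the usual marker of autophagosomes. Its signal was 758, 694 and 648 on the FoxO-null arrays and 585, 499 and 511 on the wild-type arrays. Every FoxO-null line was above every wild-type line, by a log2 difference of 0.39 ± 0.12 (unadjusted limma p 0.00596, adjusted p 0.281). Leaving out an array at a time gave 0.33 to 0.46. Map1lc3a, which encodes the related LC3A, read 1337, 1327 and 1248 on the FoxO-null arrays and 909.9, 1154 and 1119 on the wild-type arrays. Those groups did not overlap either, with wild-type 1 the lowest, and the difference was 0.30 ± 0.12 (unadjusted limma p 0.0246, adjusted p 0.406). Without wild-type 1 it was 0.20.

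Gabarapl1 encodes the GABARAP-family protein that FoxO factors are known to induce in muscle. It read 979.5, 678 and 1004 on the FoxO-null arrays and 588, 662 and 727 on the wild-type arrays, a log2 difference of 0.41 ± 0.16 (unadjusted limma p 0.0227, adjusted p 0.398). FoxO-null 2 lay within the wild-type range, and without it the difference was 0.59. Gabarap itself averaged 2043 ± 183 against 1764 ± 161 (SD, n = 3 lines per group), with overlapping groups and a log2 difference of 0.21 ± 0.12 (adjusted p 0.564 in limma). Gabarapl2, whose product also works in Golgi traffic, averaged 526 ± 66.9 against 489 ± 80.7 and was at 0.11 ± 0.14. The 5 genes thus ranged from 0.11 to 0.41, and no test set one against another.

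Among the enzymes that process and attach these proteins, Atg4b alone was under an unadjusted p of 0.05. Atg4b encodes the protease that trims LC3 before conjugation and frees it afterwards. It read 183, 190.0 and 194 on the FoxO-null arrays and 135, 155 and 157 on the wild-type arrays. The groups were apart and the difference was 0.33 ± 0.14 (unadjusted limma p 0.0359, adjusted p 0.447), but its second probe set was at -0.048 ± 0.18 with overlapping groups. Its relatives Atg4a, Atg4c and Atg4d were at -0.12 ± 0.36, 0.020 ± 0.31 and -0.12 ± 0.18. Atg12, the ubiquitin-like tag that is joined to Atg5, read 201, 165 and 201 on the FoxO-null arrays and 149, 149 and 174 on the wild-type arrays, a log2 difference of 0.25 ± 0.15 (unadjusted limma p 0.118, adjusted p 0.605), with FoxO-null 2 inside the wild-type range. Its partner Atg5 averaged 129 ± 7.70 against 127 ± 7.48 (0.023 ± 0.15). The E1-like activating enzyme gene Atg7 averaged 131 ± 50.1 against 126 ± 7.35 (-0.0100 ± 0.24), and the E2-like enzyme gene Atg3 averaged 529 ± 56.7 against 532 ± 97.8. Atg16l1, which sets the site of LC3 attachment, was at -0.23 ± 0.17. Atg10, the E2-like enzyme gene for Atg12, read 15.2, 12.1 and 23.0 against 5.52, 2.51 and 12.6, on every array under the brightest bacterial control probe set, so it has no fold.

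The widest difference of any member was in Wipi1. WIPI proteins read the phosphoinositide mark on the growing membrane and recruit the conjugation machinery to it. Wipi1 read 314, 288 and 199 on the FoxO-null arrays and 144, 153 and 195 on the wild-type arrays. FoxO-null 1 and 2 were far above the wild-type lines, while FoxO-null 3 was just above wild-type 3. The log2 difference was 0.67 ± 0.19 (unadjusted limma p 0.00414, adjusted p 0.257), a ratio of 1.59 on the offset scale, and it ran from 0.54 to 0.86 as arrays were left out. Of the 4 Wipi1 probe sets above the bacterial controls on all arrays, all were positive, between 0.36 and 0.78. The other 2, above those controls on 5 arrays, were at 1.16 ± 0.60 and -0.32 ± 0.36. The family members Wipi2 and Wdr45, which encodes WIPI4, were at 0.26 ± 0.19 and 0.30 ± 0.19 with overlapping groups, and a second Wipi2 probe set was at -0.13 ± 0.25.

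The remaining genes that feed the membrane had differences of both signs. Atg2b encodes a lipid transfer protein that feeds the growing membrane, and it read 75.2, 69.2 and 77.7 on the FoxO-null arrays and 95.7, 127 and 84.6 on the wild-type arrays. Every FoxO-null line was below every wild-type line, by a log2 difference of -0.42 ± 0.20 (unadjusted limma p 0.0573, adjusted p 0.506), though its second probe set, near background, was at 0.18 ± 0.38. Atg2a was at 0.15 ± 0.31. Atg9a, the scramblase of the seed vesicles, averaged 229 ± 8.68 against 195 ± 43.4 and was at 0.25 ± 0.16, with wild-type 3 above all FoxO-null lines. Vmp1, an endoplasmic reticulum scramblase, averaged 306 ± 58.5 against 374 ± 50.7 and was at -0.30 ± 0.16, and its second probe set was at 0.061 ± 0.16. Over the 7 genes of this step the median was 0.25, and 5 were positive.

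All 3 measured mitophagy genes were under an unadjusted p of 0.05, on the higher side, where 5.31% of all genes tested were. This moved with single lines. Of the 6 fits that left out an array, Pink1 was under it in 4, Bnip3 in 3 and Fundc1 in 2. Pink1 encodes the kinase that gathers on depolarised mitochondria and recruits the ubiquitin ligase parkin. Its signal was 201, 178 and 222 on the FoxO-null arrays and 137, 128 and 168 on the wild-type arrays. The groups were apart, with wild-type 3 closest to the FoxO-null lines, and the difference was 0.46 ± 0.16 (unadjusted limma p 0.0143, adjusted p 0.359). A second Pink1 probe set was also apart, at 0.60 ± 0.29. Fundc1 encodes an outer membrane receptor that binds LC3 when oxygen is low. It read 493, 599 and 440.4 on the FoxO-null arrays and 425, 407 and 376 on the wild-type arrays, again without overlap, a log2 difference of 0.33 ± 0.13 (unadjusted limma p 0.0305, adjusted p 0.425). Its other 2 probe sets were likewise apart, at 0.22 ± 0.13 and 0.26 ± 0.24. FoxO-null 2 was the highest line, and without it the difference was 0.21. Fundc1 is X-linked, as are Wdr45 and Atg4a. Xist, the X-inactivation transcript, read 5922 on FoxO-null 2 and no more than 35.8 on the other FoxO-null arrays, and 3733, 6327 and 25.5 on wild-type 1 to 3; its part in the Fundc1 difference was not tested.

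Bnip3, a mitochondrial receptor that binds LC3 and is a textbook hypoxia target, read 2059, 2260.3 and 1892 on the FoxO-null arrays and 1123, 2000.2 and 1611 on the wild-type arrays. Wild-type 1 was far below the rest and wild-type 2 lay within the FoxO-null range. The log2 difference was 0.43 ± 0.18 (unadjusted limma p 0.0351, adjusted p 0.445), and without wild-type 1 it was 0.20 (unadjusted limma p 0.144). The same array was low for hypoxia genes: the median deviation of 20 hypoxia response genes from the mean of the 6 arrays was -0.016, 0.048 and 0.25 on the FoxO-null arrays and -0.45, 0.11 and -0.0095 on the wild-type arrays. Of these 20, 18 had a positive difference and 2 a negative one, where 51.8% of all genes tested were positive. At an unadjusted limma p under 0.05, 5 were higher, where 5.31% of all genes were, and 0 passed over all genes. Ddit4, a stress-induced inhibitor of mTORC1, read 3029, 3051 and 3459 on the FoxO-null arrays and 1561, 2524 and 2508 on the wild-type arrays, and Mxi1, a Myc antagonist, was at 0.43 ± 0.16. How far this went into the Bnip3 difference was not tested, since leaving out wild-type 1 drops all that differs on that array. Without that array Pink1 was at 0.43, Fundc1 at 0.37, Map1lc3b at 0.46 and Wipi1 at 0.59. Map1lc3a and Atg4b were at their lowest of the fits that left out an array, 0.20 and 0.27.

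**Figure D2:**
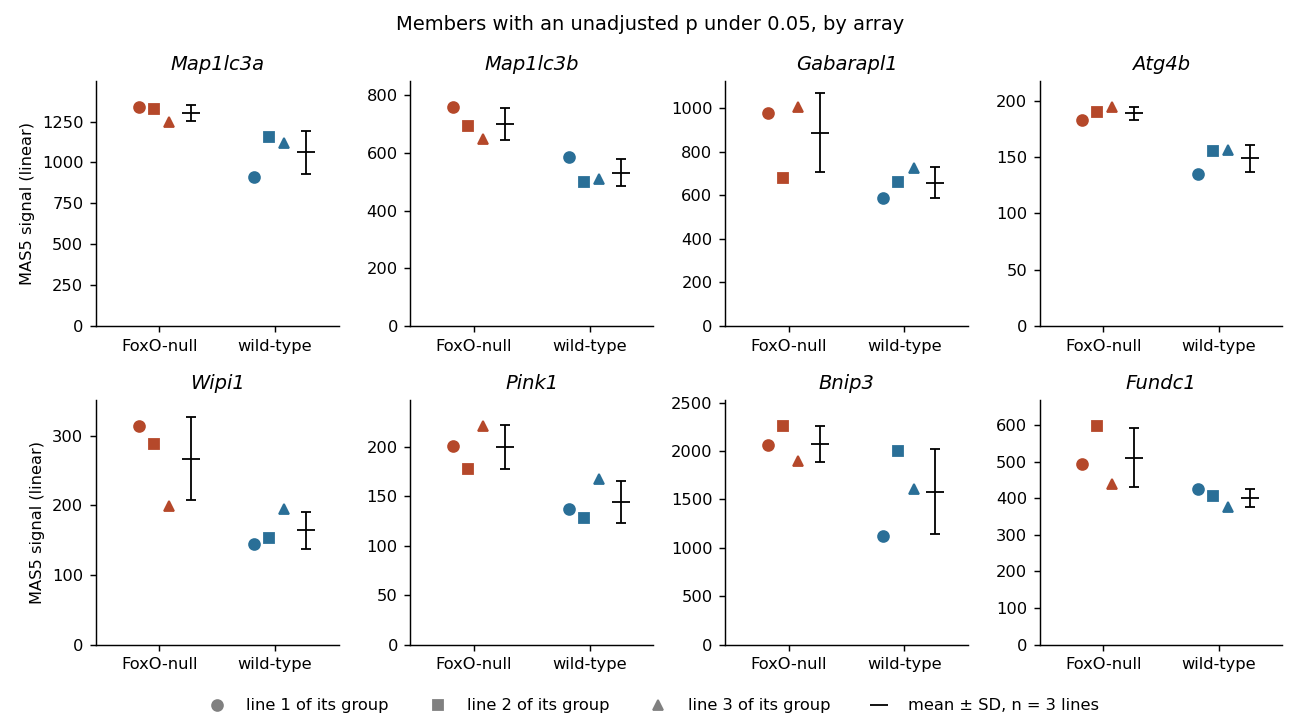
MAS5 signal on a linear axis from 0 for the 8 genes with an unadjusted p under 0.05, with 1 symbol per line and the mean ± SD of 3 lines per labelled group beside it. The groups are apart in 6 of the 8 panels and overlap in Gabarapl1, at FoxO-null 2, and in Bnip3, at wild-type 2.

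The genes that start an autophagosome had differences on both sides of 0. The 5 initiation genes had a median log2 difference of -0.016 and the 6 nucleation genes one of -0.10. Under an unadjusted limma p of 0.05 were 0 of 11, where 5.31% of all genes tested were higher and 4.90% lower. So few genes cannot set a count of 0 apart from these shares. Ulk1, the starting kinase that mTORC1 and AMPK control, read 155, 147 and 89.8 on the FoxO-null arrays and 148, 107 and 135 on the wild-type arrays, a difference of -0.016 ± 0.22 (unadjusted limma p 0.943, adjusted p 0.991). The groups overlapped, with FoxO-null 3 the lowest line of all. Ulk2, its close relative and a known FoxO target in muscle, read 269, 250.2 and 221 on the FoxO-null arrays and 207, 226 and 245 on the wild-type arrays, a difference of 0.12 ± 0.14 (unadjusted limma p 0.389, adjusted p 0.808). Its 3 bright probe sets were all positive, with no test between them. The second was at 0.22 ± 0.14, and the third read 163, 152 and 159.8 on the FoxO-null arrays and 105, 110.4 and 113 on the wild-type arrays, with the groups apart and a difference of 0.51 ± 0.15 (unadjusted limma p 0.00482, adjusted p 0.429 over all probe sets). Atg13, the adaptor of the complex, was at 0.25 ± 0.19, and its second probe set was at 0.60 ± 0.27. Rb1cc1, the scaffold FIP200 that neural stem cells need for their upkeep, averaged 126 ± 20.1 against 149 ± 18.1 and was at -0.24 ± 0.17. Atg101 was at -0.057 ± 0.18.

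In the lipid kinase complex, Becn1 was the gene whose groups were apart, on the lower side. Becn1, the scaffold Beclin 1, read 312, 321 and 278 on the FoxO-null arrays and 330.4, 353 and 352 on the wild-type arrays, a log2 difference of -0.18 ± 0.12 (unadjusted limma p 0.154, adjusted p 0.634). The gap between the groups was small, and the second probe set overlapped at -0.26 ± 0.16. Pik3c3, which encodes the lipid kinase Vps34 itself, read 103, 134 and 78.2 on the FoxO-null arrays and 101, 99.8 and 92.9 on the wild-type arrays (0.066 ± 0.21), with FoxO-null 2 the highest and FoxO-null 3 the lowest of all lines. The regulatory subunit gene Pik3r4 was at -0.11 ± 0.25, Atg14, which directs the complex to the autophagosome, at -0.090 ± 0.36, and Uvrag, which directs it to endosomes, at -0.16 ± 0.23. Ambra1, a Becn1 and Ulk1 regulator, was at 0.042 ± 0.18. Atg14 and Uvrag differed more within the FoxO-null lines than between the groups: Atg14 ran from 28.9 to 91.8 there and Uvrag from 92.1 to 188.

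The 3 tested cargo receptor genes had small differences, all positive, where 51.8% of all genes tested were. Their median was 0.10, beside 0.077 for the 39 members. Sqstm1, whose product p62 is itself degraded by autophagy, read 977, 787 and 837 on the FoxO-null arrays and 793, 754 and 874 on the wild-type arrays. The groups overlapped and the difference was 0.10 ± 0.12 (unadjusted limma p 0.419, adjusted p 0.822). Nbr1, a receptor that works beside p62, read 941, 920.0 and 927 on the FoxO-null arrays and 862, 821 and 792 on the wild-type arrays. Here the groups were apart, with a narrow spread and a small difference of 0.17 ± 0.10 (unadjusted limma p 0.116, adjusted p 0.600), and its second probe set overlapped at 0.14 ± 0.15. Tax1bp1 averaged 271 ± 37.9 against 262 ± 32.1 and was at 0.048 ± 0.15. Epg5, a tether between autophagosome and lysosome, was dim, with 25.2, 51.0 and 40.9 on the FoxO-null arrays and 44.3, 28.4 and 35.1 on the wild-type arrays, and was at 0.077 ± 0.32.

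**Figure D3:**
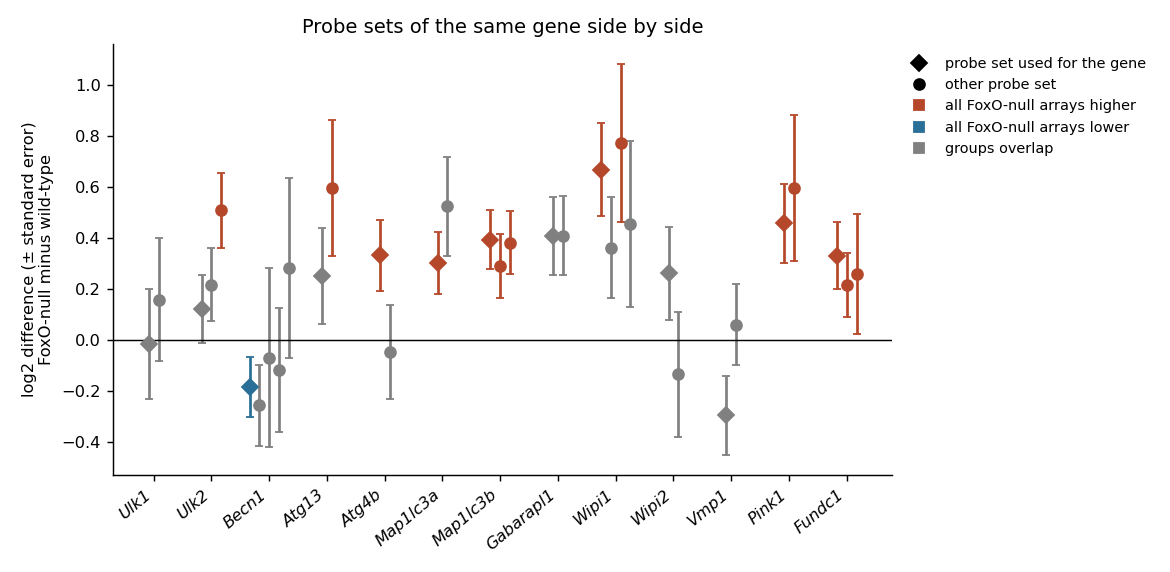
Log2 difference (± standard error, from the fit of all probe sets) for every probe set above the bacterial controls on all 6 arrays, for 13 genes with more than 1 such probe set. The probe sets of Map1lc3b, Wipi1, Pink1 and Fundc1 all lie above 0, while those of Ulk1, Becn1, Atg4b, Wipi2 and Vmp1 fall on both sides of it.

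The members had 93 probe sets in all, of which 68 were above the bacterial controls on every array. Of these, 50 were positive (73.5%, against 51.0% of the 17516 single-gene probe sets above the controls), and the groups were apart in 16 on the higher side (23.5%, against 8.32%) and 2 on the lower (2.94%, against 8.27%). Probe sets of 1 gene share its transcripts, so these counts repeat genes. Of 19 members with several such probe sets, 14 had all of 1 sign. The same share over all genes was not taken, so this count says nothing particular about the members. The probe set used for Map1lc3a has the suffix x, which marks probes that can bind other transcripts, but its second one read 417, 387 and 304 on the FoxO-null arrays and 184, 262 and 334 on the wild-type arrays, a difference of 0.53 ± 0.20. The probe set used for Gabarapl1 has the suffix s, for probes shared by several transcripts, and the second one was also at 0.41 ± 0.15. Those used for Wipi1, Atg5 and Pik3r4 have the suffix s too, as does the second brightest one of Wipi1. All 3 bright Map1lc3b probe sets had the groups apart, between 0.29 and 0.39.

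A list of 39 further autophagy and mitophagy genes had 38 tested members and a median log2 difference of 0.048, with 20 positive and 18 negative. None passed over all genes in limma, 4 were higher at an unadjusted p under 0.05 (10.5%, against 5.31% of all genes) and 1 was lower (2.63%, against 4.90%). Both partners of a late SNARE pair were among the 4. Stx17 encodes the SNARE protein of the finished autophagosome, and it read 92.2, 100.2 and 91.8 on the FoxO-null arrays and 62.6, 56.4 and 64.9 on the wild-type arrays. The groups were well apart, at 0.58 ± 0.19 (unadjusted limma p 0.00905, adjusted p 0.314). Snap29, whose product pairs with syntaxin 17 for fusion with the lysosome, read 70.0, 66.5 and 83.5 on the FoxO-null arrays and 42.7, 53.8 and 54.97 on the wild-type arrays and was also apart, at 0.49 ± 0.22 (unadjusted limma p 0.0453, adjusted p 0.477). Their lysosomal partner Vamp8 was at 0.36 ± 0.37 with overlapping groups. Calcoco1, a receptor for endoplasmic reticulum and Golgi cargo, was at 0.44 ± 0.17, and Atg16l2, a relative of Atg16l1, at 0.62 ± 0.26. The lower gene was Vps16, a subunit of the tethering complexes of the lysosome, at -0.33 ± 0.15. The lysosomal transcription factor genes were mixed: Tfeb was at -0.53 ± 0.36, Tfe3 at -0.083 ± 0.14 and Mitf at 0.48 ± 0.25. A list of lysosome genes, with 16 tested, had a median of 0.10 and 1 gene, the protease gene Ctsb at 0.35 ± 0.15, under an unadjusted p of 0.05; Psap was at 0.26 ± 0.15.

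Members known as FoxO-induced in muscle and other cells, a list of 12 of which 11 were tested, had a median log2 difference of 0.25 by the labels. Of the 11, 8 were positive and 3 negative, where 51.8% of all genes tested were positive. Under an unadjusted limma p of 0.05 were 5, all on the higher side, where 5.31% of all genes were: Atg4b, Map1lc3b, Gabarapl1, Bnip3 and Pink1. The others were Ulk1, Ulk2, Becn1, Pik3c3, Atg12 and Atg14, at the values given above. These genes are on the members' list and repeat its values. With the FoxO signals themselves higher on the arrays labelled FoxO-null, this direction is given by label only.

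The promoters of 5 of these 8 genes are shown to let their starts be read beside the signals. Each is the RefSeq window of 300 bases on GRCm38.p6, from 250 before to 50 after the annotated gene start, and 34 of the 42 members had such a window. Capitals mark the motifs searched on both strands: GTAAACA, a core that forkhead proteins such as FoxO bind, CACGTG, the E-box, and ACGTG and GCGTG, cores of the hypoxia response element, of which ACGTG lies within CACGTG. Wipi1 is at chr11:109611340-109611639, minus strand, Map1lc3b at chr8:121590188-121590487, plus strand, Gabarapl1 at chr6:129532942-129533241, plus strand, Pink1 at chr4:138326247-138326546, minus strand and Bnip3 at chr7:138909457-138909756, minus strand.
Wipi1: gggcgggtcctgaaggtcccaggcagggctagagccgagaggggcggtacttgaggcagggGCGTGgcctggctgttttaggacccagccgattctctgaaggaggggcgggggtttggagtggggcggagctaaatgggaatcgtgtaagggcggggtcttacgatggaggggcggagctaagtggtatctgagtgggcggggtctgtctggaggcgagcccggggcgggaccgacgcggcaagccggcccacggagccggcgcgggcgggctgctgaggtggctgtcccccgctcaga
Map1lc3b: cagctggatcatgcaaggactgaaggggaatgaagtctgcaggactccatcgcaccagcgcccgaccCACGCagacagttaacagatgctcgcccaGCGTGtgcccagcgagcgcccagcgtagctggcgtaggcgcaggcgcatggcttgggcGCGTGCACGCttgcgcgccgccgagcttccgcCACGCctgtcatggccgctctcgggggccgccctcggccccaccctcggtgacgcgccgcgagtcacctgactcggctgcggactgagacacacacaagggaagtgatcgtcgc
Gabarapl1: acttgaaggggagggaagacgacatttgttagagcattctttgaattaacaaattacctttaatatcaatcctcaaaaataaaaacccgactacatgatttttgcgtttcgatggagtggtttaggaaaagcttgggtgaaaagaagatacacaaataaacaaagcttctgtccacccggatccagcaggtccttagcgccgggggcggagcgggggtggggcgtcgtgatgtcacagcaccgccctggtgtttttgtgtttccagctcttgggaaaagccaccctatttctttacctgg
Pink1: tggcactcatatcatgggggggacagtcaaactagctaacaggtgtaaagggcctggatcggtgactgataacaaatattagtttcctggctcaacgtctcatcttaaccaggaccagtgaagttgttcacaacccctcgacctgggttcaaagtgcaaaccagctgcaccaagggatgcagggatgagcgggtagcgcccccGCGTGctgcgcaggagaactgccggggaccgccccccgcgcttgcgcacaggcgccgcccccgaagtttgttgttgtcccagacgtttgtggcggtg
Bnip3: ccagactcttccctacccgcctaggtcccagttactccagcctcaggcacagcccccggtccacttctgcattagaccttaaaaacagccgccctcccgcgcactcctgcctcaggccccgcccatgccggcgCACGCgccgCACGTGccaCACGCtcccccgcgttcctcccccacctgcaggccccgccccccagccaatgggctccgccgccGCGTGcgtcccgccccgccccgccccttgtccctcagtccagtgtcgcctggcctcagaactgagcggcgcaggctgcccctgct
The forkhead core was in 0 of the 40 member windows, which stand for 34 genes, and in 3.65% of 32851 promoter windows; no match says only that these letters are not in these windows. Bnip3 was the one of these 5 with an E-box, 108 bases before its start, and it held GCGTG at 3 further places. The E-box was in the windows of 5 members, Atg3, Atg5, Atg7, Atg14 and Bnip3, or 12.5% of member windows, and in 7.15% of all. GCGTG was in 65% of member windows and 32.4% of all, and ACGTG in 40% and 19.6%. The windows were not matched for base composition, and a link of these motifs to the signals was not tested. Members with a negative difference held them too, such as Ulk1 and Vmp1 with GCGTG and Atg7 with ACGTG. The Gabarapl1 window held none of the 4 motifs and was 46.3% G and C, against 58.0% to 71.7% in the other 4.

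The medians of the steps were also taken array by array, as a description. The 5 LC3 and GABARAP genes had a median deviation from the mean of the 6 arrays of 0.25, 0.067 and 0.090 on the FoxO-null arrays and -0.26, -0.19 and -0.059 on the wild-type arrays. Wild-type 3 was the wild-type line nearest to the FoxO-null lines. The 3 mitophagy genes were at 0.21, 0.34 and 0.087 on the FoxO-null arrays and -0.29, -0.15 and -0.14 on the wild-type arrays, so each FoxO-null line was above each wild-type line in both groups of genes. The 11 initiation and nucleation genes were at -0.052, 0.071 and -0.089 on the FoxO-null arrays and 0.018, 0.079 and -0.037 on the wild-type arrays, with no order by label. The 19 cell division genes were at -0.31, -0.19 and -0.13 on the FoxO-null arrays and 0.22, 0.14 and 0.18 on the wild-type arrays, the reverse order by label.

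**Figure D4:**
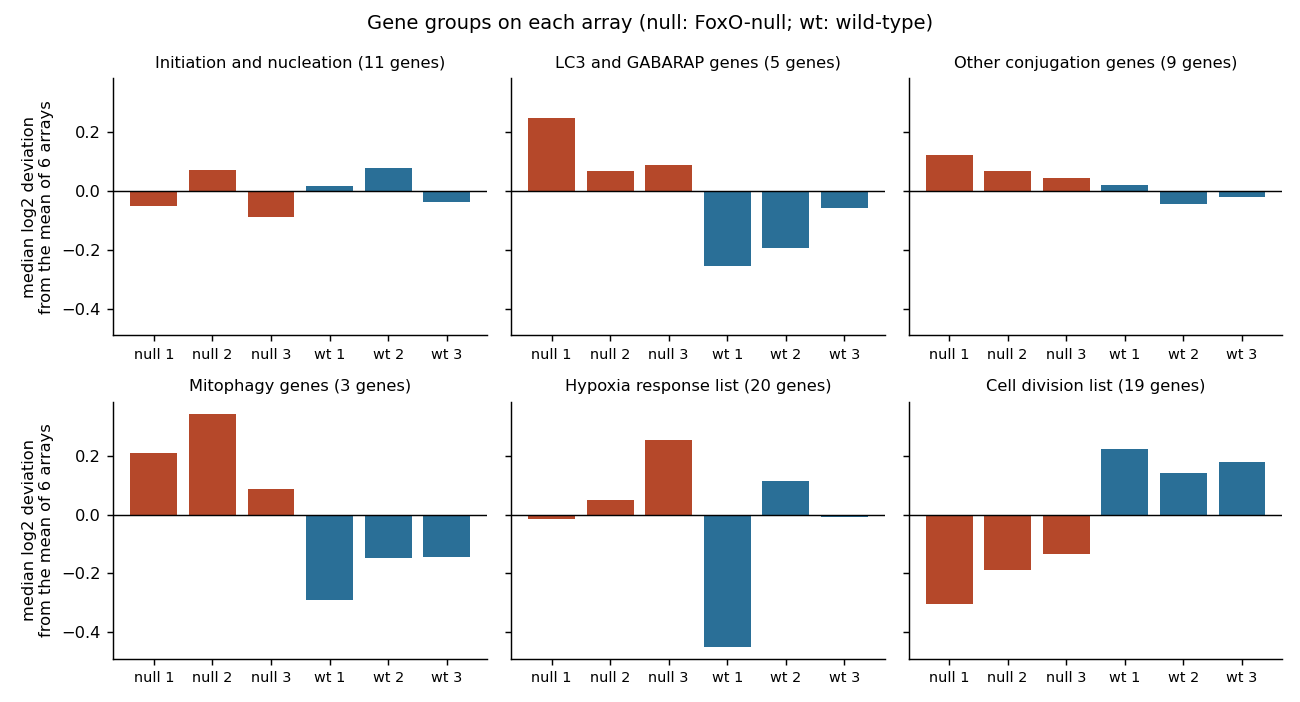
Median log2 deviation of each gene group from the mean of the 6 arrays, 1 bar per array, on an axis shared by all panels, FoxO-null arrays by label in red and wild-type arrays in blue. The LC3 and GABARAP and the mitophagy panels have positive bars on the FoxO-null arrays and negative bars on the wild-type arrays, the cell division panel has the reverse, and the hypoxia panel is led by wild-type 1 at -0.45.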

How the data were processed

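Affymetrix arrays of 6 lines were compared. The deposited intensity values had been computed with MAS5 by the authors, per the submitters' processing notes, with no version given. Each array had a mean of 100 after trimming 2% at both ends, so this scaling was kept. Of 45101 probe sets, 34945 were annotated with 1 gene. An offset of 5.94 (the 20th percentile of the values) was added before taking log2, which understates fold changes of dim genes, and genes whose mean was under the 40th percentile, a signal of 16.2, were not tested. Groups were compared in limma 3.58.1 under R 4.3.3 (lmFit, eBayes with an intensity trend), two-sided. The procedure was tested on simulated data, with planted differences larger than that of any tested member. For 3 lines against 3, exact permutation of 1 value gives no p under 0.1. The brightest of 27 Bacillus subtilis control probe sets, 14.4 to 27.6, was each array's background level. The members and lists were chosen with earlier results of these data known. By rule, array values are printed for members under an unadjusted p of 0.05 or with groups apart, for Ulk1, Ulk2, Becn1, Pik3c3, Atg12, Map1lc3b, Gabarapl1, Sqstm1, Pink1, Bnip3 and Bnip3l in any case, and up to 2 genes of smallest p are named per list; Snap29, Vamp8, Atg16l2, Vps16, the lysosomal factors, the other cell type markers named and second probe sets were added after their values were seen. Alternatives varied the offset, filter, scaling, probe set, variance model, replicate block and the arrays used.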

Additional observations from a re-analysis of the deposited data

How the results depend on the processing

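In all alternatives run, 0 members passed over all genes in limma, and at an unadjusted p under 0.05, 6 members were called only in an alternative: Atg2b (-0.49 with median centring, -0.43 with quantile normalization, -0.42 without the trend, -0.54 without wild-type 3), Atg13 (0.60 with the second probe set), Vmp1 (-0.42 without FoxO-null 2), Uvrag (-0.44 without FoxO-null 3), and Atg9a (0.41) and Wipi2 (0.48) without wild-type 3. The 8 genes under an unadjusted p of 0.05 kept a positive difference in every one, except Atg4b with the second probe set. Genes past the threshold numbered 1 with an offset of 1, without the filter, with quantile normalization or with the mean of all probe sets, and 0 with median centring, the second probe set or no intensity trend; leaving out an array gave 0 to 13. Members higher at an unadjusted p under 0.05 numbered 3 with median centring and 4 without the trend, and 3 to 9 with an array left out. Members lower numbered 1 with median centring, quantile normalization or no trend, and 0 to 1 with an array left out. The members' median was 0.0087 with median centring, where the conjugation median was -0.0034, 0.16 with the second probe set, and 0.030 to 0.17 with an array left out. Signs also turned. With median centring this was so in Ambra1 -0.026, Atg3 -0.067, Atg4c -0.049, Atg5 -0.045, Pik3c3 -0.0025, Tax1bp1 -0.021; with quantile normalization Atg4c -0.055; with an offset of 32 Atg7 0.0018; with the second probe set Atg2b 0.18, Atg4b -0.048, Ulk1 0.16, Vmp1 0.061, Wipi2 -0.13; with the mean of all probe sets Atg3 -0.44, Ulk1 0.071. With an array left out, signs turned in Ambra1 (-0.12 to 0.16), Atg101 (-0.11 to 0.0027), Atg14 (-0.43 to 0.31), Atg2a (-0.16 to 0.32), Atg3 (-0.11 to 0.14), Atg4a (-0.44 to 0.37), Atg4c (-0.26 to 0.23), Atg5 (-0.015 to 0.071), Atg7 (-0.27 to 0.29), Epg5 (-0.11 to 0.32), Pik3c3 (-0.12 to 0.25), Pik3r4 (-0.29 to 0.11), Tax1bp1 (-0.062 to 0.12), Ulk1 (-0.15 to 0.22), Uvrag (-0.44 to 0.051). The cause was not tested. The labels do not say whether replicate numbers pair the lines, and pairing was not tested. Deviations of same-numbered arrays correlated at 0.023, 0.092 and 0.12 across genes, and those of differently numbered arrays at 0.019, -0.036 and -0.10. Across the groups, 5 of 6 arrays correlated best with their own number. With the replicate block 6 genes passed, and the members' counts stayed at 0, 8 and 0. Atg10 and Epg5 were too dim for a firm statement, and the number of arrays limits the precision.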
